A study of Mus musculus with 2 samples.

Results

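Secreted Wnt proteins, their receptors and the proteins that tune them were examined in the mouse mammary gland as a family of 49 protein-coding genes. The rule that picked them uses symbols and no expression value, though it was set with earlier results of these data known. It takes every gene named as a Wnt, a Frizzled receptor, an R-spondin or one of the receptors Lgr4, Lgr5 and Lgr6, with the co-receptors Lrp5 and Lrp6, the feedback genes Axin2, Znrf3 and Rnf43, and 8 genes for secreted inhibitors. These are 49 of the 43346 genes in the tables, of which 21474 are protein-coding. Poly(A) RNA was sequenced in 2 libraries, labelled biological replicates 1 and 2 of 1 group. Both came from mammary tissue of 8-week-old mice of C57BL/6J, a standard inbred strain, and per the labels each pooled littermates of both sexes. Neither a genetic change nor a treatment is named, and the labels say nothing of reproductive state. They state no contrast either, so there was no test between groups. Differences between the 2 replicates are differences between 2 libraries. Values in pairs give replicate 1 first. Levels are in TPM, a relative abundance scaled by transcript length, so that genes can be compared.

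Wnt proteins are lipid-modified ligands that act over short distances by binding a Frizzled receptor together with Lrp5 or Lrp6, which stops the degradation of β-catenin and lets it act with TCF/LEF factors on target genes. R-spondins, bound by Lgr4, Lgr5 or Lgr6, clear the ubiquitin ligases Znrf3 and Rnf43 from the cell surface and so leave more Frizzled there, whereas the Sfrp, Wif1 and Dkk proteins are secreted and oppose the ligands or block the co-receptors. In the mammary gland, Wnt signals are known for their part in the embryonic placode, in ductal side-branching downstream of progesterone and in the maintenance of basal stem cells.

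The family was broadly present, with 33 of the 49 genes (67.3%) at 1 TPM or more in both replicates, against 58.3% of protein-coding genes. Its summed level was 505 and 901 TPM. The secreted inhibitors took the largest summed level of any role, at 227 and 402 TPM, ahead of the Frizzled receptors at 112 and 211 TPM and the Wnt ligands at 63.9 and 142 TPM. Co-receptors summed to 58.4 and 82.1 TPM, R-spondins with Lgr receptors to 25.2 and 33.4 TPM, and the 3 feedback genes to 18.8 and 30.0 TPM. Every one of these 6 sums was higher in replicate 2. At the other end, 5 genes were at or under the floor of 3 fragments in both libraries: Wnt8b with 3 and 3, Wnt7a with 3 and 0, Wnt8a with 0 and 1, and Wnt3a and Dkk1 with 0 and 0. In bulk tissue, fewer cells of a type and less RNA per cell cannot be told apart.

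**Figure D1:**
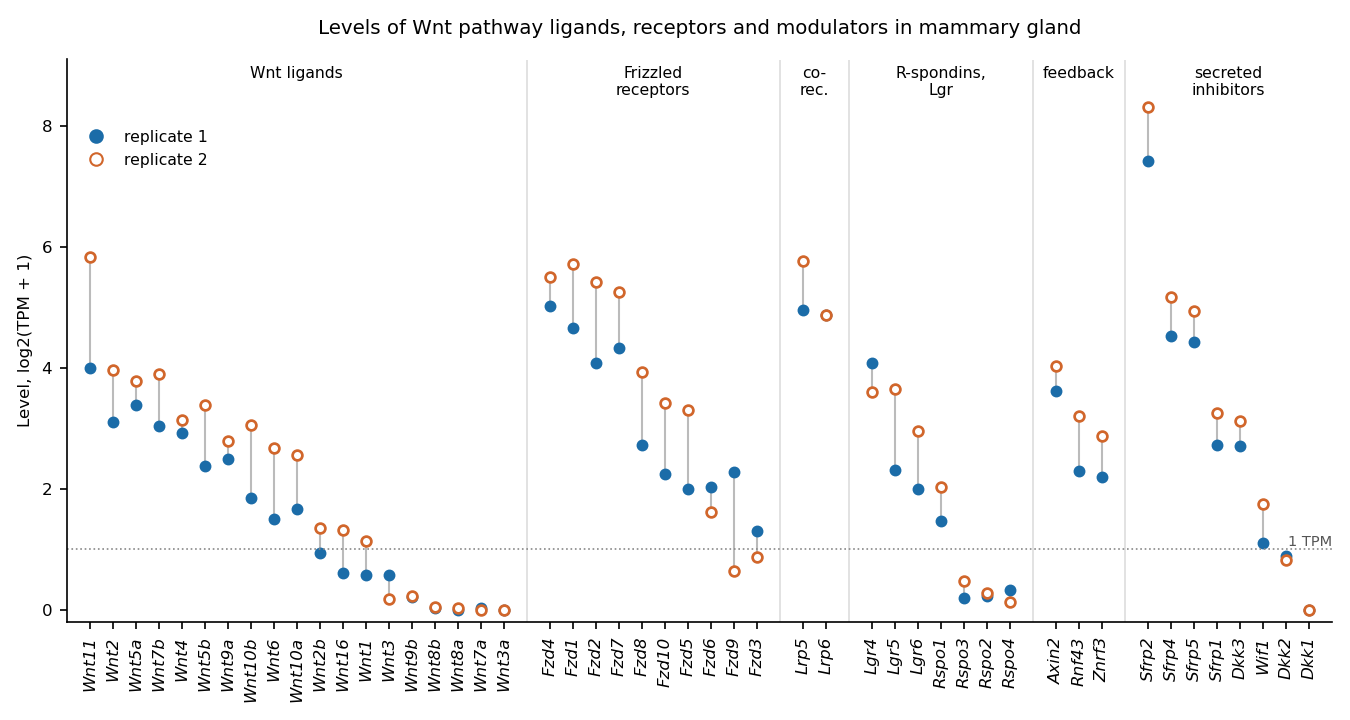
Level of each of the 49 genes as log2(TPM + 1), in 6 groups by role parted by vertical lines. Filled points are replicate 1, open points are replicate 2 and a line joins them. The dotted line marks 1 TPM. Sfrp2 stands above all others in both replicates, and Fzd9 is the gene with the longest line in which the filled point is the higher one.

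The 2 libraries differed in features that bear on every value below. Totals were 56323489 and 42400470 expected counts, and mitochondrial genes took 17.4% and 4.28% of TPM. All 11 skeletal muscle markers were lower in replicate 2, with sums of 29077 and 13.9 TPM, led by the actin gene Acta1 at 11332 and 5.93 TPM. The 8 keratinocyte markers summed to 117 and 18.2 TPM, with Krt2 and Flg at 0 in both. Markers that define the gland were present in both replicates. The 16 luminal markers summed to 1383 and 2570 TPM with Krt19, Krt8 and Krt18 highest, and the 10 basal markers to 869 and 777 TPM. The 10 fibroblast markers summed to 3265 and 3171 TPM and the 9 adipocyte markers to 20783 and 36641 TPM. Most of the adipocyte sum was Cfd, at 13596 and 29051 TPM. Only 4 of these 9 markers were higher in replicate 2, and their median log2(TPM + 1) difference, replicate 2 minus replicate 1, was -0.43. The 7 endothelial markers were at 764 and 871 TPM in all, the 5 lymphatic at 261 and 336, the 5 pericyte at 172 and 197, the 6 Schwann at 465 and 426, the 7 macrophage at 1349 and 1361, the 8 T cell at 231 and 391 and the 6 B cell at 835 and 1277 TPM. Their part in the values of the Wnt genes was not tested.

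Wnt11, a ligand best known for β-catenin-independent signalling, had the highest mean TPM of the 19 ligands. It is on chromosome 7 (98835112 to 98855195, mm10) with 14.9 and 55.8 TPM and a mean of 35.4 ± 28.9 (SD, n = 2). Its range did not overlap that of the next ligand, but the spread between its replicates was nearly as large as its mean. The lead did not hold in replicate 1 over coding transcripts alone. There Wnt11 had 7.34 and 40.5 TPM, against 8.15 and 9.31 TPM for Wnt5a. Of this coding level of Wnt11, a short transcript of 634 nt, Wnt11-203, made up 3.95 and 31.9 TPM. Wnt2, a ligand of stromal cells in many organs, was at 7.63 and 14.6 TPM. Wnt5a, the main β-catenin-independent ligand of many tissues, was at 9.46 and 12.7 TPM. Wnt7b, an epithelial ligand, was at 7.27 and 13.9 TPM, and Wnt4, the ligand known to act downstream of progesterone in the gland, was at 6.55 and 7.82 TPM. These 4 form a run in which each gene's range overlapped that of the next, so their order is not resolved by 2 replicates.

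Lower in the order came Wnt5b, a close relative of Wnt5a, at 4.18 and 9.46 TPM, and Wnt9a at 4.63 and 5.89 TPM. Wnt10b, an early ligand of the embryonic mammary line, was at 2.61 and 7.30 TPM, and Wnt6 was at 1.82 and 5.36 TPM. Wnt10a stood at 2.16 and 4.88 TPM. Of the 11 neighbouring pairs in this order, from Wnt11 down to Wnt16, 9 overlapped in their ranges. Wnt2b at 0.91 and 1.57 TPM and Wnt16 at 0.53 and 1.5 TPM passed 1 TPM in replicate 2 only, as did Wnt1, the oncogene first found at integration sites of mouse mammary tumour virus, at 0.50 and 1.2 TPM. Wnt3, another gene found at such sites, was at 0.50 and 0.13 TPM, and Wnt9b was at 0.16 and 0.17 TPM.

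Several ligand genes lie next to each other, an arrangement known from ancient duplications of the family. Taking genes within 100 kb, 4 pairs were found, and no annotated gene lay between the members of any pair. Wnt6 and Wnt10a, on the same strand of chromosome 1 and 6193 bases apart, had similar low levels. Wnt10b and Wnt1, 11706 bases apart on chromosome 15 and on opposite strands, differed, with Wnt10b higher in each replicate. Wnt9a was at 4.63 and 5.89 TPM while Wnt3a, 16175 bases away on chromosome 11, was at 0 in both. Wnt9b and Wnt3, 24328 bases apart on chromosome 11, were both under 1 TPM.

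For Wnt11 the tables divide the fragments between transcripts of 2 starts, 3733 bases apart. The 250 bases before each start are shown because the replicates of Wnt11 differed more at one start than at the other. The sequences are from RefSeq on GRCm38.p6, the build also called mm10. They run 5′ to 3′ on the plus strand, and capitals mark letters of the searched motifs, CTTTGAT and CTTTGAA for TCF/LEF and TATAAA for a TATA box, each on either strand. These motifs share no letters here.
Wnt11 upstream start, chr7:98834862-98835111: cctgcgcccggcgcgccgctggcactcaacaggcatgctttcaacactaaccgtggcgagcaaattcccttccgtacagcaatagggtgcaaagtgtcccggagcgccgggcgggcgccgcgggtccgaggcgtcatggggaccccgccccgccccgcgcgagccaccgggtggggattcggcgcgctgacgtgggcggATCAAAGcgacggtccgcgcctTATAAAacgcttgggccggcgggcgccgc
Wnt11 downstream start, chr7:98838595-98838844: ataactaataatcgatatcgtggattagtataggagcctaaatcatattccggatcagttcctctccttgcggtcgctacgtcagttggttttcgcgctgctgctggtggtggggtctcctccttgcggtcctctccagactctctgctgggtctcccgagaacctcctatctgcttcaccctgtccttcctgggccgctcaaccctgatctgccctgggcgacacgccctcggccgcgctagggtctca
The upstream sequence holds ATCAAAG, the TCF/LEF letters read on the other strand, and TATAAA. Neither motif is in the downstream sequence. Transcripts that begin within 100 bases of the upstream start had 4.42 and 33.1 TPM, and those of the downstream start 10.5 and 22.7 TPM. In counts, which depend less on the short transcripts, the upstream start had 118 and 510 fragments and the downstream start 592 and 921. The upstream share of the gene's counts was therefore 16.7% (exact 95% interval 14.0 to 19.6) in replicate 1 and 35.6% (33.2 to 38.2) in replicate 2. Of the upstream fragments, 72.2 and 412 were given to 1 short model, Wnt11-203 of 634 nt. With that transcript left out, the upstream share was 7.24% and 9.61%, so the difference in share rests mainly on it. The intervals of the full shares do not overlap, but like all intervals here they cover counting error only, and they leave out the error of dividing fragments between transcripts.

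Wnt5b had RefSeq starts up to 94961 bases apart, and its most upstream start took nearly all of its RNA. Its outer starts are shown as a contrast with Wnt11, and this gene was picked after its values were seen. The sequences run 5′ to 3′ on the minus strand with capitals as above.
Wnt5b most upstream start, chr6:119544348-119544597: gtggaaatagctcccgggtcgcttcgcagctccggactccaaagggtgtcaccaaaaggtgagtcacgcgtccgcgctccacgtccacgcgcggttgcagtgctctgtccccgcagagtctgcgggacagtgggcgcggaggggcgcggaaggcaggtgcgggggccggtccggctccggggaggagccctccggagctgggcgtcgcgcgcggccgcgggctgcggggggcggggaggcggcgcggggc
Wnt5b most downstream start, chr6:119449387-119449636: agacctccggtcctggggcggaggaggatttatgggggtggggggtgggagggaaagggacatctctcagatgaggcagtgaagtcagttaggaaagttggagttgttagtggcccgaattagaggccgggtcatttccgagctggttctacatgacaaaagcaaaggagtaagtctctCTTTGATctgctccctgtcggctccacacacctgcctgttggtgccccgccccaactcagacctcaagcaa
The most upstream start had 3.99 and 9.30 TPM, or 96.0% and 98.5% of the gene's counts. The most downstream start, whose sequence holds CTTTGAT, had 0.18 and 0 TPM. A start between them had 0 and 0.16 TPM.

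Over the family, RefSeq promoter windows of 300 bases, from 250 before to 50 after a start, were held for 32 genes and numbered 36. For the other 17 genes, Lrp5, Lgr5 and Znrf3 among them, none was used. The family's windows had a median GC content of 67.2%, against 52.7% over all 32851 windows. The full set covers 27025 genes and, unlike the family, was not limited to protein-coding genes. No comparison with protein-coding genes alone was made. The ratio of observed to expected CpG was above 0.6 in 28 of the family's windows (77.8%) against 35.8% of all windows. That ratio was 1.18 and 0.88 at the starts of Wnt11, 0.81 for Fzd4, 0.71 for Lgr4, 0.89 for Axin2 and 0.68 for Sfrp2. These had the highest mean TPM of their roles among genes with a window. At the starts of Rnf43 the ratio was 0.63 and 0.20. A TCF/LEF match was in 3 windows (8.33%) against 8.65% of all, and TATAAA in 5 (13.9%) against 13.6%, so both shares were near the background. The third TCF/LEF match was in Dkk1, which had no fragment in either library, 117 bases before the start: tcctcccaaagCTTTGAAatcccatcccgg.

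All 10 Frizzled receptors, the membrane-spanning proteins that bind Wnts, were above the floor in both libraries. Fzd4, a receptor of endothelium and other tissues, had 31.4 and 44.4 TPM, and Fzd1 had 24.3 and 51.4 TPM. Fzd7, linked to basal stem cells in the gland, had 19.1 and 37.0 TPM, and its near relative Fzd2 had 16.0 and 41.6 TPM. The ranges of these 4 overlapped from each to the next and stood clear of the fifth, Fzd8, at 5.61 and 14.3 TPM. Fzd10 followed at 3.74 and 9.69 TPM and Fzd5 at 2.99 and 8.91 TPM. In each of these 7 receptors replicate 2 was the higher library.

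The remaining receptors ran the other way. Fzd6, a planar polarity receptor, had 3.08 and 2.08 TPM and Fzd3, its relative, 1.46 and 0.83 TPM. Fzd9 (chromosome 5, 135248938 to 135251230) had 3.86 and 0.56 TPM, from 347 and 36 fragments. Its range overlapped that of Fzd6 above it. The coding transcripts of 6 Frizzled genes, Fzd1, Fzd2, Fzd7, Fzd8, Fzd9 and Fzd10, have 1 exon.

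Lrp5 and Lrp6, the single-pass co-receptors, were both well expressed. Lrp5 had 30.1 and 53.7 TPM. Lrp6 had 28.3 and 28.4 TPM, but its counts, scaled by the library totals, were lower in replicate 2 by 0.39 on the log2 scale (interval of the ratio -0.44 to -0.34). It was the only member with at least 1 TPM on average for which TPM and counts gave opposite signs. A transcript of 722 nt, Lrp6-203, held 0.36% and 21.7% of the gene's TPM but 0.03% and 2.07% of its counts.

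Among the 4 R-spondins, only Rspo1, the member reported in luminal cells of the gland, passed 1 TPM, at 1.77 and 3.09 TPM. Rspo3 had 0.14 and 0.40 TPM, Rspo2 0.17 and 0.22 TPM and Rspo4 0.26 and 0.09 TPM, from 6 to 27 fragments in each library. Within each replicate the genes of their receptors were all higher. Lgr4, the broadly expressed one, had 15.9 and 11.2 TPM, Lgr5 had 3.97 and 11.6 TPM and Lgr6 had 3.01 and 6.79 TPM. The ranges of Lgr4 and Lgr5 overlapped, as did those of Lgr5 and Lgr6 and those of Lgr6 and Rspo1. Over coding transcripts alone Lgr5 had 1.85 and 2.16 TPM, against 1.77 and 2.39 TPM for Rspo1, so it was not higher in replicate 2.

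The level of Lgr5, a stem cell marker in several epithelia and itself a β-catenin target, turned on 1 short transcript. Lgr5-203, a non-coding transcript of 607 nt, held 45.0% and 78.2% of the gene's TPM. Lgr5-201, the longest coding transcript, had 1.49 and 0.78 TPM, and all coding transcripts together had 1.85 and 2.16 TPM. In counts the gene had 412 and 362 fragments, a scaled log2 ratio of 0.22 (0.02 to 0.43), against a difference of 1.34 on the log2(TPM + 1) scale. At 5 TPM, Lgr5 would pass in replicate 2 as a gene but in neither replicate by its coding transcripts.

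The feedback genes are induced by β-catenin in many tissues and dampen the signal. Axin2, a scaffold of the complex that degrades β-catenin, had 11.3 and 15.4 TPM (mean 13.4 ± 2.88, SD, n = 2). Rnf43 had 3.92 and 8.23 TPM and Znrf3 had 3.59 and 6.35 TPM. Axin2 stood clear of both ligases, whose ranges overlapped each other.

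Sfrp2, which binds Wnts outside the cell, was the most abundant gene of the family (chromosome 3, 83766321 to 83774316). It had 171 and 318 TPM (mean 245 ± 104, SD, n = 2), and its range lay above those of all other members. Sfrp4 had 22.1 and 35.2 TPM and Sfrp5, known from adipose tissue, had 20.6 and 29.7 TPM. Sfrp1 had 5.61 and 8.52 TPM and Dkk3, a divergent member of the Dickkopf family, 5.53 and 7.70 TPM. Wif1, which binds Wnts directly, had 1.14 and 2.38 TPM and Dkk2, which binds Lrp5 and Lrp6, 0.85 and 0.78 TPM. Of the 7 inhibitors with a fragment, Dkk2 alone had more TPM in replicate 1.

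The lead of Sfrp2 also depended on a short transcript. Sfrp2-202, a non-coding transcript of 600 nt, held 68.4% and 60.8% of the gene's TPM but 32.0% and 25.1% of its counts. The coding transcript Sfrp2-201, of 2003 nt, held 68.0% and 74.9% of the counts and stood at 54.0 and 125 TPM. Sfrp2 was still the highest member by coding transcripts alone, since no other member reached 54 TPM in replicate 1 or 125 TPM in replicate 2. Counted over coding transcripts, the secreted inhibitors summed to 110 and 209 TPM, close to the Frizzled receptors at 112 and 211 TPM, so the order of those roles rests on Sfrp2-202.

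**Figure D2:**
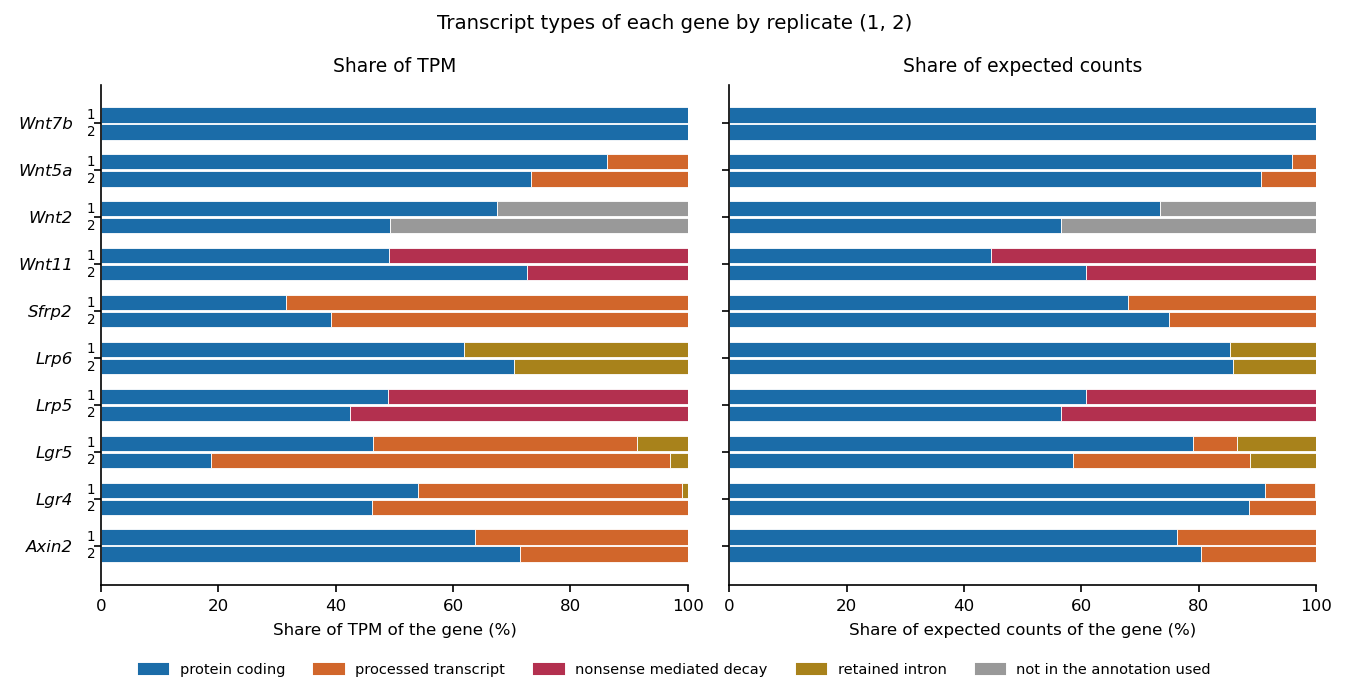
Share of each gene's TPM (left) and of its expected counts (right) by transcript type, as stacked bars in percent, replicate 1 above replicate 2, for Lgr5 and the 9 genes that had several transcripts and 5 TPM or more in each replicate. Non-coding types take a larger share of TPM than of counts in Sfrp2, Lgr4, Lgr5, Lrp5, Lrp6, Axin2 and Wnt5a, where the leading non-coding transcript is shorter than the main coding one, but not in Wnt11.

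Of the 49 genes, 24 have 1 transcript in the tables and 25 have more. In the 9 of the latter that reached 5 TPM in each replicate, the transcript with the largest share of TPM was the same in both replicates for 5, and by share of counts for 9. The 5 were Sfrp2 with its 600-nt transcript, Axin2-201, Lrp6-201, Wnt5a-201 and Wnt7b-201, of which Wnt7b-201 took 98.5% and 97.2%. In Wnt11 the leader was Wnt11-204, annotated as a target of nonsense-mediated decay, at 48.9% in replicate 1, and Wnt11-203, a coding model of 634 nt, at 57.1% in replicate 2. In Lrp5 it was the coding Lrp5-201 at 48.2% in the first and Lrp5-203, also annotated for nonsense-mediated decay, at 56.0% in the second. In Lgr4 the leaders were Lgr4-201 at 53.9% and the 750-nt non-coding Lgr4-204 at 53.8%. In Wnt2 they were Wnt2-201 at 67.4% and a transcript of 1741 nt that is not in the annotation used here, at 50.7%.

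The replicates were compared gene by gene with the ratio of scaled counts. A gene was called where the 95% counting interval of that ratio lay wholly beyond 2-fold. Of 47 members with a fragment in either library, 5 were called higher in replicate 2, where 6.74% of the 22402 genes tested were called in that direction, and 2 were called higher in replicate 1, against 8.12% of all genes. The 5 were Wnt6 with a log2 ratio of 1.78 (1.46 to 2.11), Wnt11 with 1.42 (1.29 to 1.55), Fzd2 with 1.3 (1.22 to 1.37), Fzd10 with 1.29 (1.13 to 1.45) and Fzd8 with 1.27 (1.14 to 1.40). The 2 were Fzd9 with -2.86 (-3.40 to -2.36) and Wnt3 with -2.09 (-3.16 to -1.15), the latter from 62 and 11 fragments. These are shares of 10.6% and 4.26% of the members tested. The counts in the 2 directions were 9 and 2 with TMM scaling, 10 and 2 with DESeq2 size factors, 30 and 1 with spike-in totals and 2 and 2 once the trend with GC content, described below, was removed. Shares over all genes were computed for total-count scaling only, so the counts at these other settings cannot be set against a background.

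Over all 47 members tested, the called ones included, the interval lay above 0 in 34 (72.3%), below 0 in 7 (14.9%) and held 0 in 6. Over all 22402 genes tested it lay above 0 in 29.2% and below 0 in 36%, and over protein-coding genes in 34.9% and 40.2%. Among the 37 genes averaging 1 TPM or more, 33 had more TPM in replicate 2, at a median log2(TPM + 1) difference of 0.71, while the same median over protein-coding genes was 0.06. The 4 that ran the other way were Fzd9, Fzd3, Fzd6 and Lgr4.

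**Figure D3:**
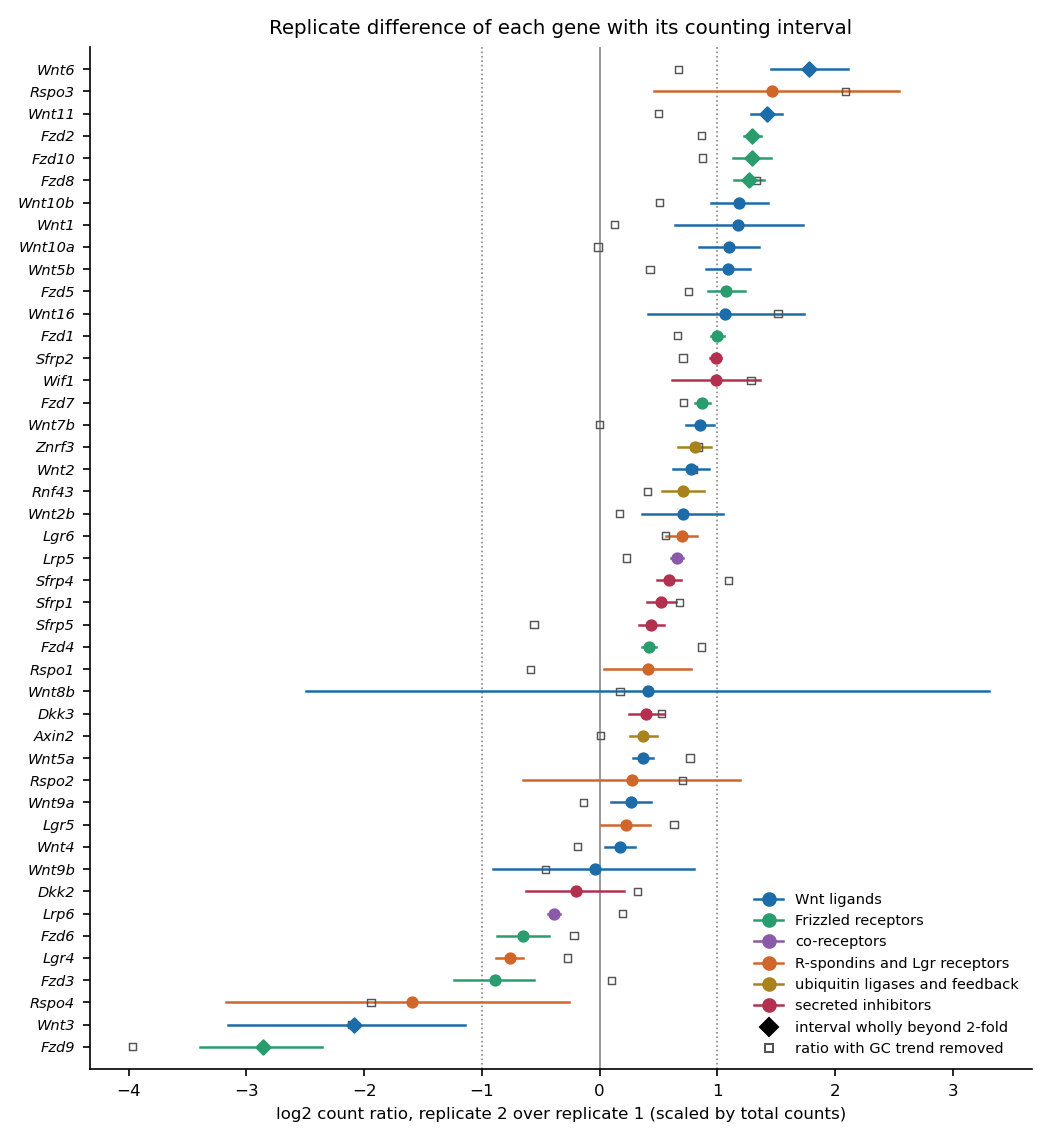
Log2 ratio of scaled counts, replicate 2 over replicate 1, for the 45 genes with a fragment in both libraries, ordered by ratio and coloured by role; bars are 95% counting intervals, diamonds mark intervals wholly beyond 2-fold (dotted lines) and open squares show the ratio with the GC trend removed. Most points lie right of 0, with Fzd9 and Wnt3 far to the left, and the open squares of Wnt6, Wnt11, Fzd2 and Fzd10 fall inside the dotted lines.

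GC content moved with this difference across all genes. Over the 13272 protein-coding genes averaging 1 TPM or more, the Spearman correlation of GC content with the difference was 0.53, given as a description across genes that share both libraries. It was 0.33 over the 37 members, whose median GC content was 55.3%, against 51.0% for protein-coding genes. With the median difference at each GC content subtracted, the members' median difference was 0.55 against 0.00 for protein-coding genes, and 26 of 37 members were higher in replicate 2. These were 25 of the 33 that had been higher before, and Fzd3, which turned. After this subtraction the correlation with GC content was -0.46 over the members and -0.02 over protein-coding genes, so the trend of all genes was steeper than that of the family and lowered its GC-rich members relative to its GC-poor ones. Of the 5 genes called higher in replicate 2, only Fzd8 then remained past the limit, joined by Rspo3, a gene of 13 and 27 fragments. The ratio without the trend was 0.50 for Wnt11, 0.67 for Wnt6, and 0.87 for both Fzd2 and Fzd10. Fzd9 moved further down, to -3.97, and Wnt3 stayed at -2.11. Sfrp5, of 60.3% GC, went from 0.44 to -0.56, whereas Fzd4, of 47.0% GC, went from 0.42 to 0.87.

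**Figure D4:**
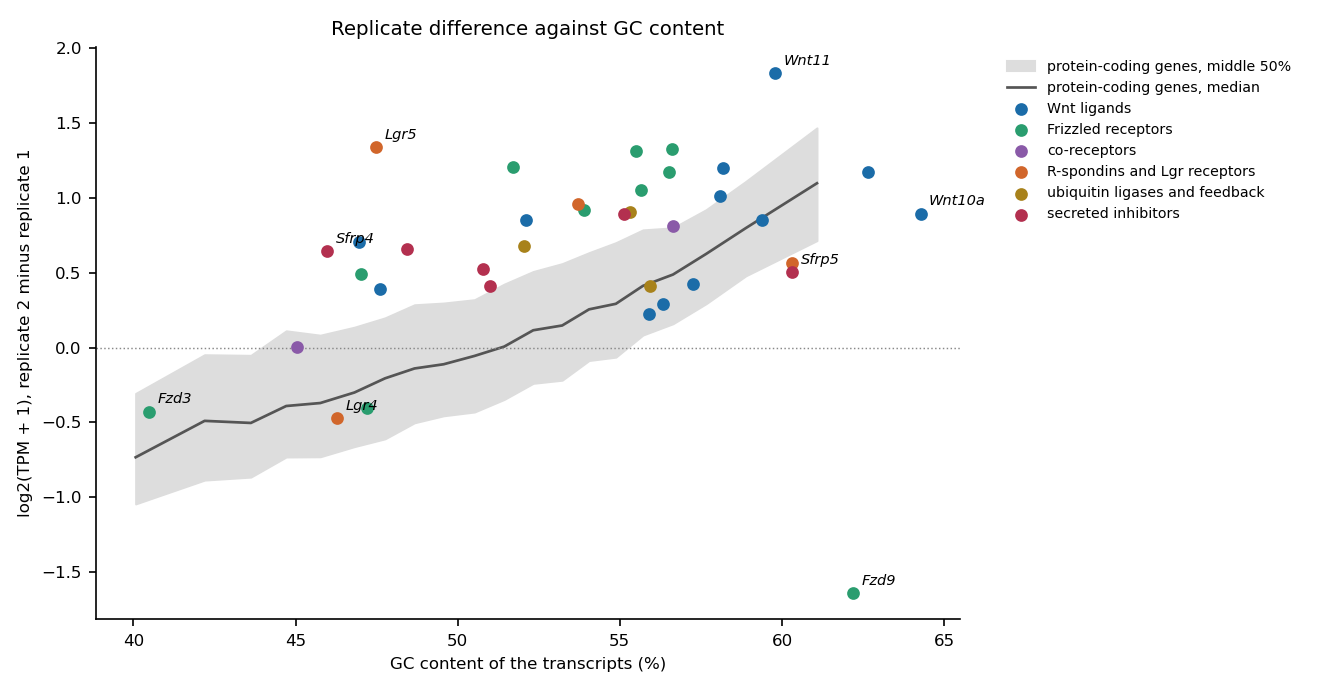
Difference of log2(TPM + 1), replicate 2 minus replicate 1, against the GC content of the transcripts in percent, for the 37 genes averaging 1 TPM or more, coloured by role; the line is the median of protein-coding genes in 20 bins of GC content and the band their middle 50%. Of the 37 genes, 26 lie above the line, which is held level beyond its ends for this count, while Fzd9 lies far below it at 62.2% GC.

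Fzd9 and Wnt3 were lower in replicate 2 beside the skeletal muscle and keratinocyte markers given above. Rspo4 ran the same way at 24 and 6 fragments, a log2 ratio of -1.59 (-3.17 to -0.26). The 3 keratinocyte markers with the highest mean TPM did not move alike. Krtdap had 52.8 and 1.13 TPM and Krt77 23.1 and 1.15 TPM, and both were called higher in replicate 1. Sbsn had 14.2 and 11.7 TPM and was not called. Of the 8 markers in that list 4 were called higher in replicate 1, where 8.12% of all genes tested were. The part of either tissue in the levels of these 3 Wnt pathway genes was not tested. In the other direction the 16 luminal markers had a median difference of 0.95, and 13 of them were higher in replicate 2. The GC trend was not removed from these luminal values, so they compare with the members' values before that step. The part of luminal cells in the higher level of the ligands and Frizzled receptors was not tested either.

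Genes that act around the family were described from 4 lists, which overlap in a few genes. Beside any calls in them stand the shares over all genes tested, 6.74% higher in replicate 2 and 8.12% higher in replicate 1. Of 25 genes for secretion, cofactors and further modulators, 19 were at 1 TPM or more in both replicates. Apcdd1, a membrane inhibitor of Wnt signalling, led at 93.7 and 136 TPM, ahead of the glypican gene Gpc3 at 51.9 and 72.0 TPM, the syndecan gene Sdc4 at 39.0 and 42.4 TPM, Adgra2 at 19.3 and 59.6 TPM and the Wnt co-receptor gene Ryk at 40.8 and 32.2 TPM. Wls, the carrier that takes Wnts to the cell surface, was called higher in replicate 1 at 26.2 and 10.2 TPM, in the direction opposite to most ligands. Its log2 ratio of -1.45 was -0.59 without the GC trend, which ends the call. Frzb, a secreted Wnt antagonist, was called the same way at 2.50 and 0.73 TPM. Adgra2 and Sost, the latter with 2 and 14 fragments, were called higher in replicate 2, but neither was called without the GC trend, where the ratio of Adgra2 went from 1.24 to 0.34. Dkk4 had no fragment. The median difference of this list was 0.17.

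All 14 genes of the β-catenin destruction complex and its transducers were at 1 TPM or more in both replicates. The Dishevelled gene Dvl1 was highest at 113 and 205 TPM, followed by the kinase gene Gsk3a at 101 and 112 TPM. Csnk1a1 had 34.4 and 81.5 TPM, Ctnnb1, which encodes β-catenin, 26.8 and 45.9 TPM, and Dvl3 15.0 and 38.7 TPM. Over coding transcripts alone Dvl1 had 46.4 and 80.2 TPM, below Gsk3a at 101 and 112 TPM. The log2 ratio of scaled counts of Csnk1a1 was 0.31 (0.25 to 0.36), against a difference of 1.22 on the log2(TPM + 1) scale. None of the 14 was called higher in replicate 1, where 8.12% of all genes tested were. Dvl3 and Dvl2, the latter at 11.6 and 24.2 TPM, were called higher in replicate 2, where 6.74% of all genes tested were. Without the GC trend their ratios of 1.28 and 1.18 were 0.73 and 0.64, which ends both calls, while Gsk3b at 1.21 and Tnks at 1.18 were then past the limit. The median difference was 0.40.

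Of 13 genes for nuclear factors, 12 were at 1 TPM or more in both replicates and 4 were called higher in replicate 2, the direction in which 6.74% of all genes tested were called. The TCF/LEF factor genes Tcf7, at 62.3 and 176 TPM, and Lef1, at 16.5 and 41.2 TPM, were among those 4, with the corepressor gene Tle3 at 51.2 and 121 TPM and the β-catenin cofactor gene Bcl9l at 22.1 and 68.6 TPM. Without the GC trend Tcf7, at 1.1, and Lef1, at 1.61, were still past the limit, whereas Tle3 went from 1.16 to 0.76 and Bcl9l from 1.56 to 0.45 and were not. Tcf7 and Lef1 are also highly expressed in T cells, whose 8 markers summed to 231 and 391 TPM, and the part of T cells was not tested. Pygo2, a partner of Bcl9 proteins, had 27.1 and 158 TPM, and Tle2 had 53.9 and 83.0 TPM. Over coding transcripts alone Pygo2 had 26.15 and 39.7 TPM and Tle2 had 10.2 and 27.8 TPM. The log2 ratio of scaled counts of Pygo2 was 0.91, and 0.23 without the GC trend. The median difference of this list was 0.61.

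Of 14 reported target genes, 11 were at 1 TPM or more in both replicates. Those called higher in replicate 2 numbered 5, where 6.74% of all genes tested were called. They include Tcf7 and Lef1, already counted among the nuclear factors. The others were Myc at 19.9 and 73.9 TPM, Tbx3 at 14.8 and 63.5 TPM and Sp5 with 0 and 14 fragments. Over coding transcripts alone Tbx3 had 8.10 and 21.7 TPM. Tnfrsf19, at 5.10 and 1.83 TPM, was called higher in replicate 1, the direction of 8.12% of all genes tested. Without the GC trend all of these stayed past the limit except Sp5, for which no such ratio was computed. The cell cycle gene Ccnd1 had 29.8 and 55.5 TPM and was not called. Axin2, the target most often read as a sign of the pathway, was not called either, with a log2 ratio of 0.37 (0.26 to 0.49) that was 0.01 without the GC trend. Many genes of this list have other known regulators, and the median difference of those averaging 1 TPM or more was 0.68.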

How the data were processed

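Gene and transcript tables of 2 libraries were taken as deposited by the authors, on mm10 and GENCODE M4 according to their text notes. Their columns, per the file headers, are expected counts, TPM, FPKM and posterior mean TPM, bounds of TPM (a signal here), and the percent of each gene taken by each isoform. Aligner and quantifier: not given in the sources used here. Contigs and junctions, on mm9, were not used. GENCODE M21, of the same build, gave names, types, positions and GC content, and RefSeq (GRCm38.p6) the promoters. Per the labels, libraries were stranded, paired-end, of 76 nt reads, from poly(A)-selected RNA depleted of rRNA, with spike-ins.

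The genes and lists were chosen with earlier results of these data known. Every member is named, as are, in each pathway list, the 5 with the highest mean TPM and those called. Of each marker list up to 3 of the highest could be named, and only those beside a result are. Promoters given were of the gene with the highest mean TPM of each role, Rnf43 and, chosen after their values were seen, Wnt5b and Dkk1. Expected counts were rounded and scaled by their totals, 56323489 and 42400470, and the interval of each count ratio is Clopper-Pearson (95%). It was run on simulated data that held counting error only. Such data cannot show how the interval fares with real variation between libraries. TPM was compared as log2(TPM + 1). The GC trend was the median difference in 20 bins, held at the end values beyond them. Alternative scalings were TMM (edgeR 4.0.16), DESeq2 1.42.0 size factors and spike-in totals of 887845 and 393355; other thresholds and filters were also tried. Levels over coding transcripts alone were added after the data were seen. Nothing says how many animals each pool held. Tools were R 4.3.3, Python 3.11.15, scipy 1.17.1, pandas 2.3.3, numpy 2.4.6 and, for figures, matplotlib 3.10.9.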

Additional observations from a re-analysis of the deposited data

How the results depend on the processing

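No paired analysis was possible because there is 1 group of 2 replicates. The count of members at 1 TPM or more in both replicates went from 33 to 19 at a minimum of 5 TPM and lay between 32 and 39 under the other units and limits tried. Members called higher in replicate 2 went from 5 to 9 with TMM scaling, 10 with DESeq2 size factors, 30 with spike-in totals, 18 at a fold limit of 1.5, and 2 with the GC trend removed. All 5 were kept under the first 4 of these settings, and 1 under the last. No share of calls over all genes was computed at these settings, so the counts have no background beside them. Scaled by spike-ins, the median log2 ratio of all genes averaging 1 TPM or more was 0.71, against 0.07 with DESeq2 size factors and -0.06 with total counts, while that of the members was 1.47, 0.84 and 0.71. Members called higher in replicate 1 went from 2 to 1, Fzd9, with spike-in totals, with a 99% interval and where a mean of 1 TPM was required. The median log2 difference of members lay between 0.53 and 0.90 under the 7 alternatives run for it, which changed the pseudocount, the filter, the unit or the GC trend and did not include spike-in scaling. The mean summed level of secreted inhibitors went from 315 TPM to 70.0 without Sfrp2 and 159 over coding transcripts. That of R-spondins with Lgr receptors went from 29.3 TPM to 15.7 without Lgr4 and 16.5 over coding transcripts. The dominant transcript was shared in 16 of 22 genes at a minimum of 1 TPM and in 9 of 9 by counts, against 5 of 9. The log2 ratio changed sign without the GC trend in Wnt7b (-0.0037), Wnt10a (-0.013), Wnt9a (-0.13), Wnt4 (-0.19), Sfrp5 (-0.56), Rspo1 (-0.59), Fzd3 (0.10), Lrp6 (0.19) and Dkk2 (0.32). It changed sign with spike-in totals in Lgr4 (0.0012), Fzd6 (0.12), Lrp6 (0.38), Dkk2 (0.56) and Wnt9b (0.73), and in Wnt9b also with TMM scaling (0.052) and DESeq2 size factors (0.092). The causes were not tested. For genes of a few fragments, such as Rspo2, Rspo4 and Wnt9b, depth limits what can be said.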
